A study of Mus musculus with 6 samples.

Results

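The transcription factor p53 is switched on by DNA damage, oncogenes and other stress, and it raises genes that halt the cell cycle, repair DNA, kill the cell or retune metabolism. Its own targets include Mdm2, whose product marks p53 for destruction, and Ppm1d, whose product is a phosphatase that quiets the damage signal, so the response carries its own brake. In B cells that overproduce MYC, the ARF protein normally holds MDM2 off p53, and lymphomas of Eµ-myc mice often lose either Arf or p53. The 38 genes described here are p53 regulators and textbook p53 targets outside the BCL-2 family, chosen by name as known members of the pathway. The choice was made with earlier results of these data known, so the share of them that changed describes this list and is not independent evidence about the pathway. Of the 38, 37 were measured, each by 1 probe set, among 18784 genes in all; the gene of p53 itself, Trp53, was not analysed here.

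The arrays came from cultured mouse B lymphoma cells of the genotype Arf-/-Eu-myc/Bcl-2, which lack Arf and carry transgenes for MYC, driven in B cells by an immunoglobulin enhancer, and for the survival protein BCL-2. There were 3 arrays of cells transduced with the short hairpin RNA Dhx9.1241, aimed at the RNA and DNA helicase gene Dhx9, and 3 arrays of cells transduced with the control hairpin Rluc.713, named for Renilla luciferase. All cells, control cells included, lacked Arf, carried both transgenes and grew on irradiated Arf-/- mouse embryo fibroblasts. Each condition is 1 hairpin, the labels name no drug on these arrays and give no p53 status, and they do not say whether the replicates were separate cultures, so the p-values measure the spread between arrays, which may be technical.

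Levels are on a log2 scale, on which a difference of 1 is a doubling, and they do not compare the RNA amount of 1 gene with another's. Where genes are split at the median level, the split is by probe signal only. Dhx9 fell by 0.99 (95% interval -1.12 to -0.87, limma adjusted p = 0.000129), while Dhx29, which the sample titles name, had a change of 0.04 (adjusted p = 0.857). Since these levels do not rank RNA amounts across genes and there are no arrays of another cell type, they do not check the labelled B cell origin. The B cell receptor gene Cd79a was at 13.62 to 13.76 in Dhx9.1241 and 13.70 to 13.85 in Rluc.713. The level of the Arf locus gene Cdkn2a was 7.73 to 7.97 in Dhx9.1241 and 7.91 to 7.99 in Rluc.713; whether its probes lie in the deleted part is not given, so it does not check the genotype. Rluc.713 replicate 1 stood apart from the other arrays: in genes at the median level or brighter, its median difference from the mean of the other 2 controls was -0.06, and among dimmer genes it was 0.11.

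A subset of p53 target genes was modestly higher in Dhx9.1241. Of the 37 measured members, 10 rose, which is 27% of them against 2.07% of all genes tested, and none fell, against 1.07% of all genes. They were Plk2, Zmat3, Trp53inp1, Cdkn1a, Phlda3, Slc19a2, Sesn1, Psrc1, Tnfrsf10b and Ak1, with log2 changes between 0.27 and 0.78. The other 27 did not pass the limma threshold of an adjusted p under 0.05; at an unadjusted p under 0.05, 17 members were higher (45.9%, against 8.5% of all genes) and 1 was lower (2.7%, against 5.63%). The median log2 change was 0.10 over the members and 0.00489 over all genes, and 29 members lay above 0, 78.4% against 52.5% of all genes, and 8 below. In 20 members every Dhx9.1241 array lay above every Rluc.713 array (54.1%, against 11.6% of all genes), and in Ccng1 every Dhx9.1241 array lay below (against 8.51%). These shares of all genes are not matched for level: 32 of the 37 members, and all 10 that rose, were at or above the median level. A limma fit of only the 9392 genes at or above that level called 609 genes higher and 382 lower. It called 13 members higher and none lower.

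The roles differed in their counts. Of 7 arrest and growth genes 4 rose, of 9 death and survival genes 3, of 8 metabolism and signalling genes 3, of 6 repair genes none and of 7 regulators and feedback genes none. The share of all genes that rose was 2.07%. At an unadjusted p under 0.05 in the same limma fit, 4 of the 6 repair genes (66.7%) and 1 of the 7 regulators and feedback genes (14.3%) were higher, against the 8.5% of all genes, and none of either was lower. At that limit 4 arrest and growth genes (57.1%), 4 death and survival genes (44.4%) and 4 metabolism and signalling genes (50%) were higher. The only lower gene was 1 of metabolism and signalling (12.5%, against 5.63% of all genes). The median change was 0.35 in the arrest and growth genes, 0.20 in the repair genes, 0.14 in the metabolism and signalling genes, 0.07 in the death and survival genes and 0.06 in the regulators and feedback genes. The repair genes had the second highest median although no member was called. The difference between roles was not tested.

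**Figure D1:**
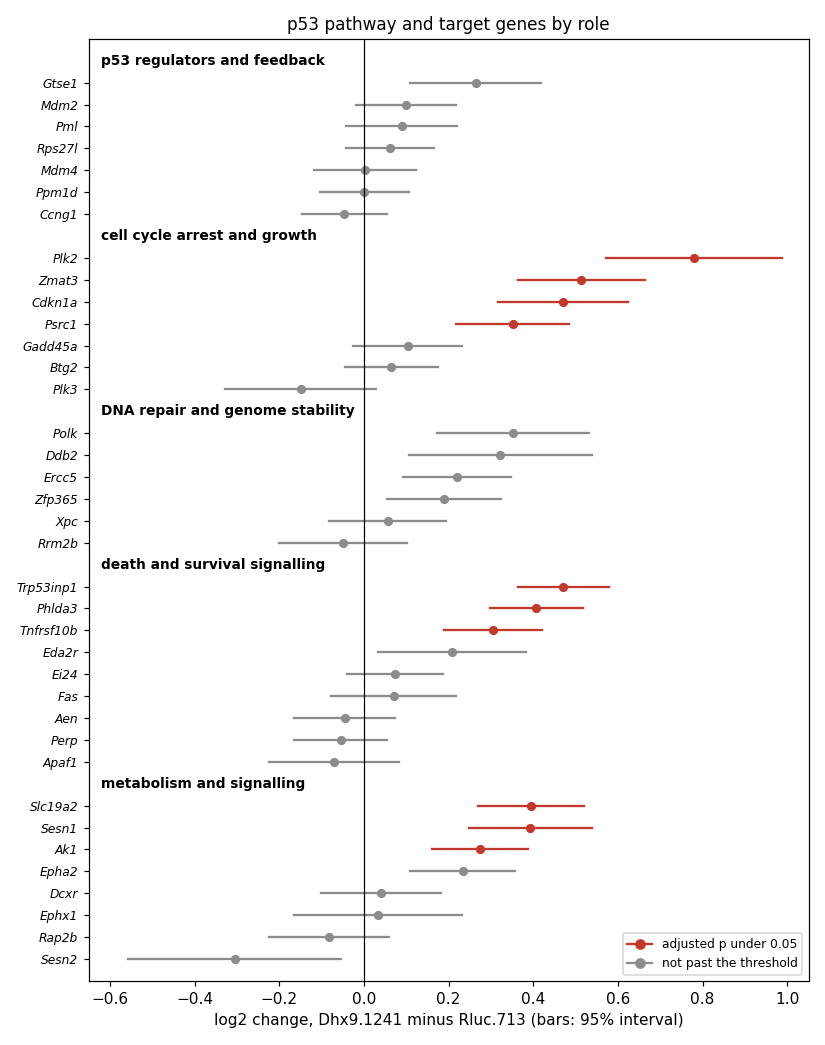
Log2 change of each of the 37 measured genes, Dhx9.1241 minus Rluc.713, with its 95% interval from limma, grouped by role; red marks an adjusted p under 0.05 and grey the rest. The 10 red genes lie between 0.27 (Ak1) and 0.78 (Plk2), and the regulators and feedback genes hold no red point.

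The p53 consensus was looked for in the promoters, since some members of the list rose. It was read as 2 copies of the 10-base p53 half-site, at most 3 bases apart, with at most 1 of the 20 bases deviating; the consensus reads the same on both strands. The windows ran from 250 bases before to 50 bases after each start site in RefSeq (GRCm38.p6), and 30 of the 37 members had at least 1. Such a site was in the windows of 5 of the 30 members, 16.7%, against 0.451% of the 27025 genes in the table, and a perfect half-site was in 13 of them, 43.3%, against 9.55%. These genes are on the list because they are known p53 targets, so the share describes the list and is no separate evidence about these cells. The 5 windows are printed here because they hold the sites of 1 gene that rose (Cdkn1a), 2 that were higher without passing (Gtse1 and Polk) and 2 with changes near 0 (Ccng1 and Rps27l). Capitals mark the site:
Cdkn1a, chr17:29090729-29091028, + strand: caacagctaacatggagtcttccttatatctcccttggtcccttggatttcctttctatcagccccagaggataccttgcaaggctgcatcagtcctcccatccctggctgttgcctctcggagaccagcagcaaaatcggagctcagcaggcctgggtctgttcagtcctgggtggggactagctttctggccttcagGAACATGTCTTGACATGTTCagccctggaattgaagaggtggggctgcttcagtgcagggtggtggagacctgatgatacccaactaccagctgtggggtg
Gtse1, chr15:85859696-85859995, + strand: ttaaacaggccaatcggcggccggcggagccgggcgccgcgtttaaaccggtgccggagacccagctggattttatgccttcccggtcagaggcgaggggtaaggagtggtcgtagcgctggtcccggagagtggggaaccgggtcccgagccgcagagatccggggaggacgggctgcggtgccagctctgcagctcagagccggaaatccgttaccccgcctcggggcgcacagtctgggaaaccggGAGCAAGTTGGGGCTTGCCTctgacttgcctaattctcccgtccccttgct
Polk, chr13:96519138-96519437, - strand: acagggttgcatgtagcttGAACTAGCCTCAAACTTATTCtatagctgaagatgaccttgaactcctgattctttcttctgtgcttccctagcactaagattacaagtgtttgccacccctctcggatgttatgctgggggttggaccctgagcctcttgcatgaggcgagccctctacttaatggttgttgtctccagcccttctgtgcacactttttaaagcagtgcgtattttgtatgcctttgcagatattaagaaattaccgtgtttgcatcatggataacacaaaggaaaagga
Ccng1, chr11:40755237-40755536, - strand: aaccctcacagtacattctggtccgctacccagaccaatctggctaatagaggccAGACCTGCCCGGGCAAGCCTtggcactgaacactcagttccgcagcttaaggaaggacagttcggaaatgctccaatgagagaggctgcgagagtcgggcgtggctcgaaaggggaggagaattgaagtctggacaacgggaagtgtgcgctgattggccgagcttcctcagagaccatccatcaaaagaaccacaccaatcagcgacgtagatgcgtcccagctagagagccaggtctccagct
Rps27l, chr9:66946163-66946462, + strand: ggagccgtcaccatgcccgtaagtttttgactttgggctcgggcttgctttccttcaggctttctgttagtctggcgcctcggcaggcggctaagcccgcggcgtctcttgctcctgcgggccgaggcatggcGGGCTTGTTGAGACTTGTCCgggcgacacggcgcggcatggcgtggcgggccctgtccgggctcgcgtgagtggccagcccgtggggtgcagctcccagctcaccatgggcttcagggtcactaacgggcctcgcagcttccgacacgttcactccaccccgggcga

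In Cdkn1a the 20-base site begins 51 bases before the start of the upstream of its 2 listed promoters. In Gtse1 it begins 1 base, in Rps27l 117 bases and in Polk 231 bases before the start of 1 of the 2 listed promoters of each gene. In Ccng1, with 1 listed promoter, it begins 195 bases before the start. A site of this kind was in the windows of 1 of the 7 called members that had a promoter and of 4 of the 23 others. A match is a run of letters and not a bound site, and windows without one, such as that of Plk2, say only that these letters are not in those 300 bases.

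Among the arrest and growth genes, Plk2, which encodes a polo-like kinase that acts at the centrosome, had the highest change of all members. Its level was 9.35, 9.39 and 9.37 in Dhx9.1241, against 8.37, 8.70 and 8.72 in Rluc.713. The groups did not overlap, and the lowest value was that of Rluc.713 replicate 1. Plk2 rose 1.72-fold (log2 change 0.78, interval 0.57 to 0.99, adjusted p = 0.00392), and by 0.67 without that array (adjusted p = 0.00039).

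Zmat3, which encodes a zinc finger protein that binds RNA, stood at 10.72, 10.71 and 10.57 in Dhx9.1241, against 10.06, 10.22 and 10.17 in Rluc.713. Dhx9.1241 replicate 3 was the lowest of its group and still above every control. The change was 0.51 (interval 0.36 to 0.66, adjusted p = 0.00566), a 1.43-fold rise.

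Cdkn1a encodes p21, the inhibitor of cyclin-dependent kinases through which p53 stops the cycle in G1. Its level was 12.37, 12.46 and 12.41 in Dhx9.1241, against 11.81, 12.00 and 12.03 in Rluc.713. The groups were apart, with Rluc.713 replicate 1 lowest again. The rise was 1.39-fold (log2 change 0.47, interval 0.32 to 0.62, adjusted p = 0.00954), but the adjusted p was 0.0545 when Dhx9.1241 replicate 3 was left out.

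Psrc1, whose product binds microtubules of the spindle, was at 10.91, 10.91 and 10.75 in Dhx9.1241, against 10.46, 10.53 and 10.51 in Rluc.713. The spread lay mostly within Dhx9.1241, where replicate 3 was lowest, and the groups did not overlap. Its change was 0.35 (SE 0.058, adjusted p = 0.018). The remaining arrest genes did not pass: Gadd45a, a growth arrest and DNA damage gene, had a change of 0.10 (interval -0.03 to 0.23), Btg2, an antiproliferative gene, 0.06 (-0.05 to 0.18) and Plk3, a stress-linked polo-like kinase, -0.15 (-0.33 to 0.03). The intervals of Plk2 and its relative Plk3 did not overlap, and the difference between their changes was not itself tested.

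**Figure D2:**
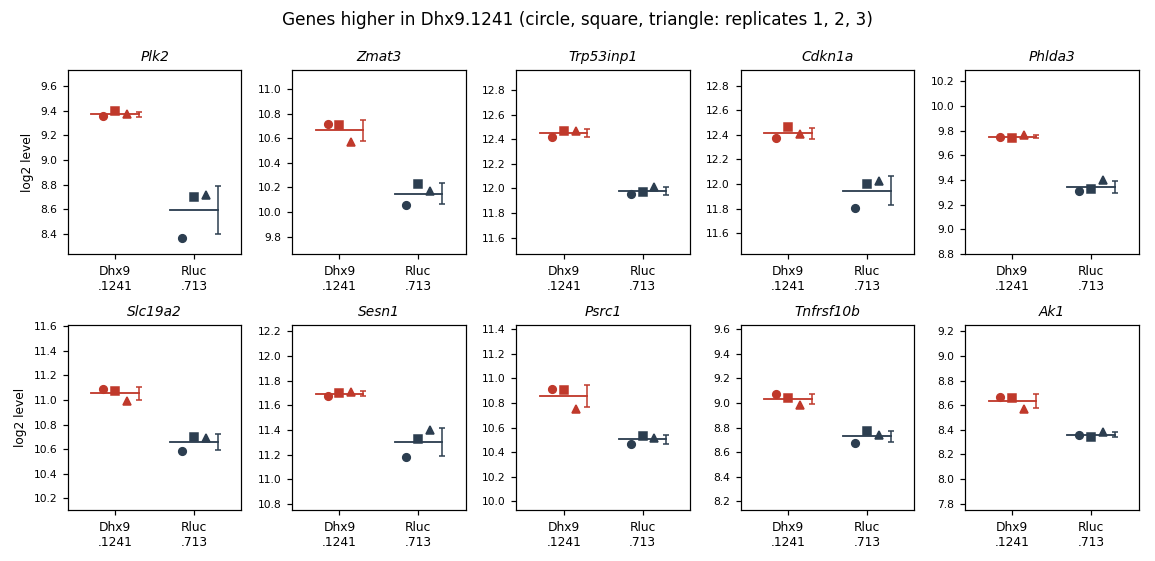
Log2 level of the 10 genes that rose, on each array, with Dhx9.1241 left (red) and Rluc.713 right (dark); lines are means, bars SD (n = 3), and every panel spans the same range of log2 units. In each gene the 3 Dhx9.1241 arrays lie above the 3 Rluc.713 arrays, and Plk2, at 9.37 against 8.59 in the mean, shows the widest gap.

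In the death and survival group, Trp53inp1 had the smallest adjusted p of all members. Its product is a stress-induced nuclear protein that promotes cell death and autophagy. The level was 12.41, 12.47 and 12.47 in Dhx9.1241, against 11.95, 11.97 and 12.01 in Rluc.713, with little spread in either group. It rose 1.39-fold (log2 change 0.47, interval 0.36 to 0.58, adjusted p = 0.00199).

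Phlda3, which encodes a repressor of AKT signalling, was at 9.75, 9.74 and 9.76 in Dhx9.1241, against 9.31, 9.32 and 9.40 in Rluc.713. The Dhx9.1241 arrays were very close to each other (SD 0.0128, n = 3) and above every control. The change was 0.41 (interval 0.30 to 0.52, adjusted p = 0.004).

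Tnfrsf10b, which encodes the mouse receptor of the death ligand TRAIL, was at 9.07, 9.04 and 8.99 in Dhx9.1241, against 8.68, 8.77 and 8.74 in Rluc.713. The groups were apart on every array, and the rise was 1.23-fold (log2 change 0.30, interval 0.19 to 0.42, adjusted p = 0.0174). The other receptor genes of the death and survival list did not pass: Eda2r had a change of 0.21 (interval 0.03 to 0.38) and Fas of 0.07 (-0.08 to 0.22), and in both the groups overlapped. The gene of the apoptosome scaffold, Apaf1, stood at -0.07 (-0.22 to 0.08), the apoptosis nuclease gene Aen at -0.05 (-0.16 to 0.07), the membrane effector gene Perp at -0.06 (-0.16 to 0.05) and Ei24 at 0.07 (-0.04 to 0.19). None of these 6 changed by an amount that passed the limma test, while Eda2r was the single one of them with an unadjusted p under 0.05.

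Among the metabolism and signalling genes, Slc19a2, which encodes a thiamine transporter, was at 11.09, 11.07 and 10.99 in Dhx9.1241, against 10.59, 10.70 and 10.69 in Rluc.713. Every Dhx9.1241 array exceeded every control, by a mean of 0.39 (interval 0.27 to 0.52, adjusted p = 0.0082). When Dhx9.1241 replicate 1 was left out the adjusted p was 0.0525.

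The 2 sestrin genes, whose products sense stress and restrain mTORC1, had changes of opposite sign. Sesn1 was at 11.67, 11.70 and 11.71 in Dhx9.1241, against 11.18, 11.33 and 11.40 in Rluc.713, and it rose 1.31-fold (log2 change 0.39, interval 0.25 to 0.54, adjusted p = 0.016). Sesn2 was at 9.84, 10.06 and 9.62 in Dhx9.1241, against 10.12, 10.28 and 10.05 in Rluc.713; the groups overlapped, Dhx9.1241 had the largest spread of any member (SD 0.223, n = 3), and the change of -0.31 (interval -0.56 to -0.05) did not pass the limma threshold (adjusted p = 0.235). Sesn2 was the 1 member lower at an unadjusted p under 0.05. The difference between the changes of the sestrins was not tested.

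Ak1, an adenylate kinase gene, was at 8.67, 8.66 and 8.57 in Dhx9.1241, against 8.36, 8.34 and 8.38 in Rluc.713. The controls were close together, and the rise of 0.27 (interval 0.16 to 0.39, adjusted p = 0.0249) was the smallest among the called members. Epha2, a receptor tyrosine kinase gene, was higher on every Dhx9.1241 array without passing (0.23, interval 0.11 to 0.36, adjusted p = 0.0651). The changes of the dicarbonyl reductase gene Dcxr (0.04), the epoxide hydrolase gene Ephx1 (0.03) and the small GTPase gene Rap2b (-0.08) did not pass, with overlapping groups in all 3.

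The regulators and feedback genes had the smallest median change. In 4 of the 7, Mdm2, Pml, Rps27l and Gtse1, every Dhx9.1241 array lay above every Rluc.713 array (57.1%, against 11.6% of all genes). In 1, Ccng1, every Dhx9.1241 array lay below (against 8.51% of all genes). Mdm2 was at 11.66, 11.63 and 11.56 in Dhx9.1241, against 11.47, 11.56 and 11.53 in Rluc.713. The groups nearly touched, and the change of 0.10 (interval -0.02 to 0.22, adjusted p = 0.485) did not pass. The upper bound of that interval lies below the lower bounds of Plk2, Zmat3, Trp53inp1, Cdkn1a, Phlda3, Slc19a2 and Sesn1, though the differences between genes were not tested.

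Mdm4, the relative of Mdm2 that binds and blocks p53, was at 11.61, 11.67 and 11.64 in Dhx9.1241, against 11.56, 11.69 and 11.67 in Rluc.713. The groups overlapped fully, with a change of 0.00194 (interval -0.12 to 0.12). Ccng1, the cyclin G1 gene, was at 13.04, 13.03 and 13.05 in Dhx9.1241, against 13.09, 13.09 and 13.08 in Rluc.713. The replicates of Ccng1 were very close, so the groups did not overlap although the change was only -0.05 (interval -0.15 to 0.05, adjusted p = 0.785).

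Ppm1d had a change of 0.00118 (interval -0.10 to 0.11), Pml, the gene of the nuclear body protein that assists p53, 0.09 (-0.04 to 0.22) and Rps27l, a ribosomal protein gene that p53 induces, 0.06 (-0.04 to 0.17). Rps27l has a close paralog whose transcripts its probes could also read, so its value is uncertain. Gtse1, whose product binds p53 and microtubules in G2, was at 11.13, 11.15 and 11.15 in Dhx9.1241, against 10.74, 10.91 and 10.99 in Rluc.713. Its Dhx9.1241 arrays were nearly equal and above all controls, but the change of 0.26 (interval 0.11 to 0.42) did not pass (adjusted p = 0.092).

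**Figure D3:**
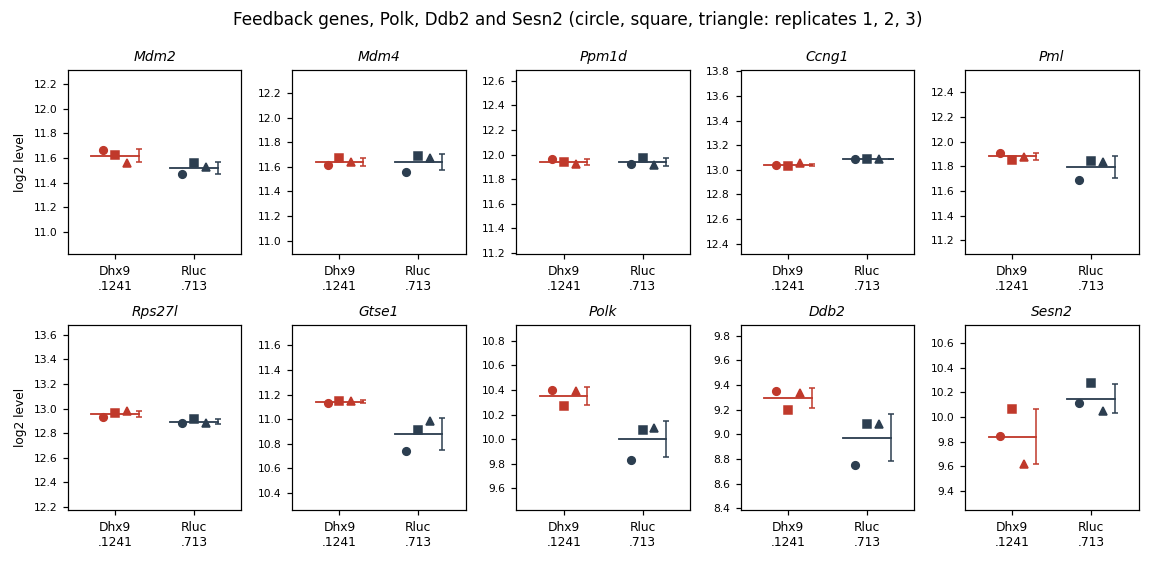
Log2 level on each array of the 7 regulators and feedback genes and of Polk, Ddb2 and Sesn2, with Dhx9.1241 left (red) and Rluc.713 right (dark); lines are means, bars SD (n = 3), and the panels span the same range as in the plot of the genes that rose. Mdm4 and Ppm1d sit at the same level in both groups. Mdm2, Pml, Rps27l, Gtse1, Polk and Ddb2 are higher on all 3 Dhx9.1241 arrays, and Sesn2 has the widest spread in Dhx9.1241 (SD 0.223).

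Repair genes were higher in the mean in 5 of 6, with none past the threshold. Polk, which encodes a DNA polymerase that copies past damaged bases, was at 10.40, 10.27 and 10.39 in Dhx9.1241, against 9.83, 10.08 and 10.09 in Rluc.713. The groups were apart, and the change was 0.35 (interval 0.17 to 0.53, adjusted p = 0.0572). Polk was called without Rluc.713 replicate 1, although its change there was 0.27 (adjusted p = 0.0358).

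Ddb2, whose product recognises ultraviolet damage, was at 9.35, 9.20 and 9.34 in Dhx9.1241, against 8.75, 9.08 and 9.09 in Rluc.713. Its groups did not overlap either, but Rluc.713 replicate 1 lay far below the other controls, and the change of 0.32 (interval 0.11 to 0.54) had an adjusted p of 0.138. It was 0.21 without that array (adjusted p = 0.0866). The excision endonuclease gene Ercc5 (0.22, interval 0.09 to 0.35) and the genome stability gene Zfp365 (0.19, interval 0.05 to 0.32) were higher on every Dhx9.1241 array without passing. Xpc, which encodes a damage sensor of the same excision pathway as Ddb2, had a change of 0.06 (-0.08 to 0.19), and Rrm2b, a p53-induced subunit of ribonucleotide reductase, of -0.05 (-0.20 to 0.10).

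Rluc.713 replicate 1 was often the lowest array for these genes. It gave the lowest of the 6 levels in 22 of the 37 members, 59.5%, and in 9 of the 10 that rose, against 22.6% of all genes and 38.9% of the genes at or above the median level, which 32 of the members are. Without it the median change of the members was 0.08, against 0.10 with all arrays, and 11 members rose, the same 10 and Polk. The median over all genes was then 0.0218, against 0.00489 with all arrays. Calls over all genes also grew, to 497 higher and 399 lower, from 389 and 201. The mean deviation of the members from their own 6-array means was 0.10, 0.10 and 0.05 on the Dhx9.1241 arrays and -0.14, -0.05 and -0.05 on the Rluc.713 arrays. All 3 Dhx9.1241 arrays lay above all 3 controls on this mean, and likewise in 4 of the 5 roles, while in the metabolism and signalling group Dhx9.1241 replicate 3, at -0.02, overlapped the controls.

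Leaving out any other array lowered the count of members called. It was 5 without Dhx9.1241 replicate 1, 6 without replicate 2, 6 without replicate 3, 6 without Rluc.713 replicate 2 and 7 without Rluc.713 replicate 3. Over all genes the calls fell too: in the same order 126, 165, 153, 172 and 203 genes were higher, against 389 with all arrays. All fits with 1 array left out rest on fewer arrays, also the fit without Rluc.713 replicate 1, which called 11 members. The cause of the lower counts was not tested. Plk2, Zmat3, Trp53inp1 and Phlda3 were called in all 6 of these fits, Cdkn1a and Slc19a2 in 5, Sesn1 and Psrc1 in 2, and Tnfrsf10b and Ak1 in 1, that without Rluc.713 replicate 1. All 10 kept their sign in each of them.

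**Figure D4:**
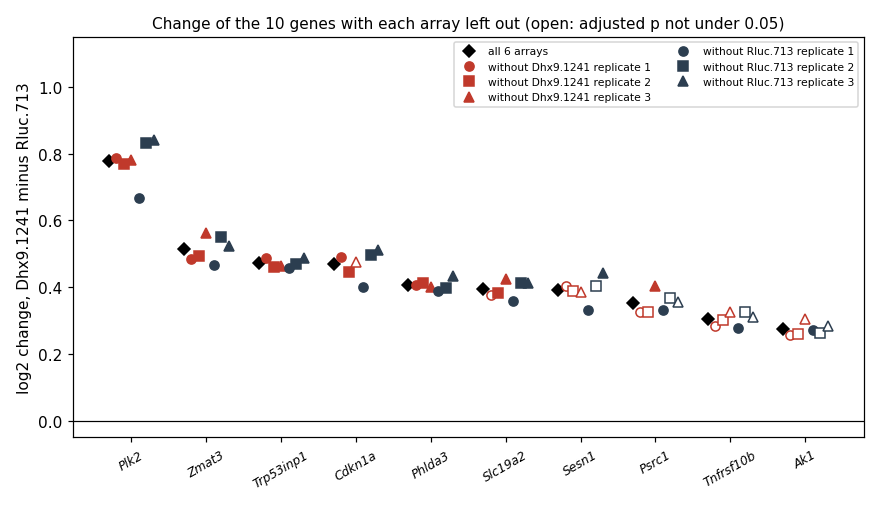
Log2 change, Dhx9.1241 minus Rluc.713, of the 10 genes that rose, with all 6 arrays (diamonds) and with each array left out; filled symbols have an adjusted p under 0.05. Every symbol lies above 0, and the lowest value of Plk2, 0.67, is that without Rluc.713 replicate 1.

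Among p53 targets outside the 38, the share called was near that of all genes, while shares at looser limits were higher in both directions. Of 36 measured other p53 targets, 1 rose and none fell, 2.78% against the 2.07% of all genes, and at an unadjusted p under 0.05 in limma 7 were higher (19.4%, against 8.5% of all genes) and 3 lower (8.33%, against 5.63%). In 8 of the 36 every Dhx9.1241 array lay above every Rluc.713 array, 22.2% against 11.6% of all genes. In 5 of the 36 every Dhx9.1241 array lay below every Rluc.713 array, where the share of all genes was 8.51%. The one that rose was Arhgef3, at 10.50, 10.43 and 10.44 in Dhx9.1241 and 9.83, 9.98 and 10.01 in Rluc.713 (log2 change 0.52, adjusted p = 0.004). The median change of that list was 0.04. Whether it differs from that of the 37 members was not tested.

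Kinases, cofactors and relatives of p53 were close to even. None of 21 measured genes passed in limma, although an unadjusted p under 0.05 was reached by 2 upward (9.52%, against 8.5% of all genes) and 1 downward (4.76%, against 5.63%), and their median change was -0.000404. The kinase gene Hipk2, whose product phosphorylates p53 (-0.17, adjusted p = 0.133), and Rchy1, whose product is a ubiquitin ligase of p53 (-0.16, adjusted p = 0.464), had the largest changes; the damage kinase gene Atm was at 0.14 (adjusted p = 0.245).

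Among cell cycle genes that p53 lowers through p21 and the DREAM repressor, none of the 17 measured passed in limma. At an unadjusted p under 0.05, 4 were lower (23.5%, against 5.63% of all genes) and none higher. Their median change was -0.06, and 12 of the 17 lay below 0 (70.6%, against 47.5% of all genes). The mean level of the list was 12.00, 11.94 and 11.99 in Dhx9.1241, against 11.99, 12.06 and 12.06 in Rluc.713, so the groups overlapped, with Rluc.713 replicate 1 the lowest control. Gene by gene, every Dhx9.1241 array lay below every Rluc.713 array in 5 of the 17, where the share of all genes was 8.51%. In none did every Dhx9.1241 array lie above, where that share was 11.6%. Top2a, the DNA topoisomerase gene of dividing cells, had the largest change, -0.21 (interval -0.34 to -0.08, adjusted p = 0.104), followed by the spindle gene Nusap1 at -0.17 (adjusted p = 0.299). Cdk1, the kinase gene of mitotic entry, stood at -0.09 and the mitotic kinase gene Plk1 at 0.04.

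**Figure D5:**
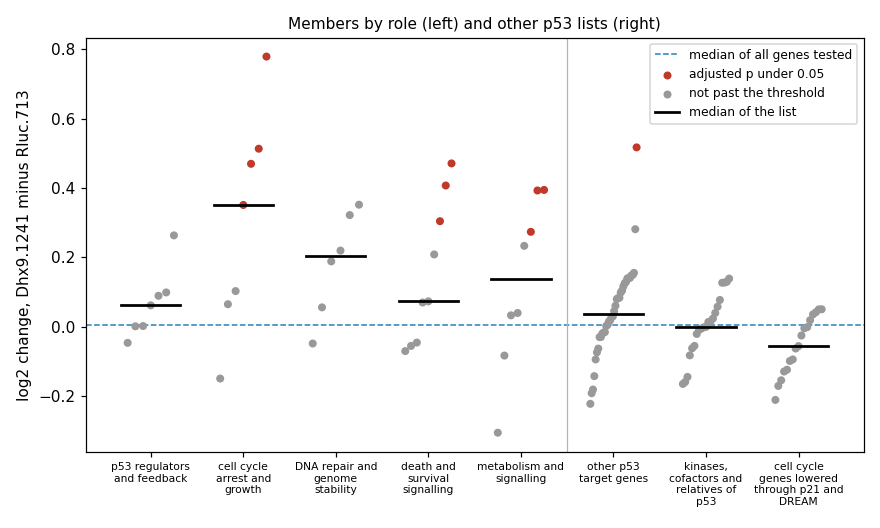
Log2 change of every gene, Dhx9.1241 minus Rluc.713, for the 37 members by role (left of the grey line) and for 3 other lists of p53 genes (right); black bars are medians, the dashed line is the median of all genes tested and red marks an adjusted p under 0.05. The arrest and growth genes have the highest median, 0.35, and the cell cycle genes lowered through p21 and DREAM the lowest, -0.06.

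Markers of other cells were measured on the same arrays. For fibroblasts, which form the feeder layer, the mean log2 level of 12 markers was 7.80 to 7.81 in Dhx9.1241 and 7.79 to 7.97 in Rluc.713, highest on Rluc.713 replicate 1; 1 of them, Cav1, fell and 11 did not pass. The mean of 9 myeloid markers was 8.49 to 8.52 in Dhx9.1241 and 8.76 to 8.84 in Rluc.713, and 4 fell (Lyz2, Csf1r, Tyrobp and Fcer1g), against 1.07% of all genes. The lysozyme gene Lyz2 fell by 1.31, the largest fall of any gene tested, while the integrin gene Itgam was higher on every Dhx9.1241 array without passing (log2 change 0.21, adjusted p = 0.152). The mean of 8 B cell markers was 12.54 to 12.61 in Dhx9.1241 and 12.53 to 12.65 in Rluc.713, and that of 8 T and NK cell markers was 7.39 to 7.43 in Dhx9.1241 and 7.36 to 7.46 in Rluc.713, with none called in either list by limma. Array levels have no true 0, so none of these markers can be called absent. In bulk cells, fewer cells of a type and less RNA per cell cannot be told apart, and the part of these markers in the p53 gene values was not tested.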

How the data were processed

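Total RNA of 6 lymphoma cell samples was labelled with an Affymetrix 3′ IVT kit and hybridised to arrays, per the labels' protocols. The authors deposited log2 values, which they made with RMA, per the submitters' processing notes. RMA removes background, normalizes arrays together and combines the probes of a set, and it tends to compress the changes of dim genes; its settings and the probe set definition were not stated. The values ran between 3.97 and 14.6, the range of a log2 scale.

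Of 21212 probe sets, 18786 had 1 gene symbol in the platform annotation, 6 had several, and 2420, which have no name here, were left out with them. Symbols were updated by Entrez number (18775 matched) from RefSeq names of GRCm38.p6. The brightest probe set was kept for 2 genes with several, which left 18784 genes, with no filter. Dhx9.1241 minus Rluc.713 was fitted with limma 3.58.1 (lmFit, eBayes) in R 4.3.3 with no covariate, 3 arrays a group, and two-sided p-values were adjusted by Benjamini-Hochberg over all genes, with calls under 0.05. The members, roles and lists were chosen with earlier results of these data known. Values on every array are given for Mdm2, Mdm4, Ccng1, Cdkn1a, each called member and, in roles with none called, the 2 largest changes; Sesn2 was added after its values were seen, as were some genes named as examples of other lists. The fit was tested on simulated data. Alternatives were renormalization, centring, filters on dim genes, other variance models, array weights, a replicate block, single probe sets and leaving out arrays. The number of arrays limits the precision.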

Additional observations from a re-analysis of the deposited data

How the results depend on the processing

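All 10 members that rose kept their sign in all 16 alternatives, 4 of them (Plk2, Zmat3, Trp53inp1 and Phlda3) were called in each, and 6 lost the call in at least 1. No member was called lower in any. Members called higher numbered 8 to 14 across the alternatives other than the replicate block and leaving out 1 array, and 5 to 11 with 1 array left out. The cause of the lost calls was not tested. Ak1 and Tnfrsf10b lost their calls when arrays were centred on their medians. Polk, Gtse1, Ercc5, Epha2 and Ddb2, not called with the main setting, were each called in at least 1 alternative, and array weights called the most members, 14. Leaving out Rluc.713 replicate 1 and Dhx9.1241 replicate 2 together, chosen after seeing the data, gave 10 members, 8 of them shared with the main setting.

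Over all genes, 389 were called higher and 201 lower. The counts were 250 higher with centred arrays, 360 lower after quantile normalization again and 345 lower after cyclic loess. With dim genes left out up to the median level they were 609 higher and 382 lower. Robust variance estimation with a trend gave 673 and 466, array weights gave 669 and 542, and leaving out 1 array gave 126 to 497 higher and 70 to 399 lower. Deviations of same-numbered arrays from their group means had correlations of -0.27, -0.34 and 0.24. The highest correlation of any pair was 0.48, between Dhx9.1241 replicate 2 and Rluc.713 replicate 1. The 3 deviations of a group depend on each other, so these values cannot settle whether the numbers pair the samples. With the replicate number as a block 7 members rose, 172 genes were higher and 92 lower. The Dhx9 change passed in every alternative. With 3 arrays a group, a member that was not called is not shown to be unchanged.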
